A study of Mus musculus with 1111 samples.

Results

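The genes described here are the chromatin remodellers and histone methylation enzymes of mouse microglia. They are the 70 genes of 35583 in the count tables whose symbol begins with Chd, Kmt, Kdm, Setd, Arid or Smarc followed by a digit or subunit letter. Single microglia were sorted from the brains of 3-month-old mice 20 hours after an injection of plasma proteins tagged with NHS-Atto647N, a red fluorescent dye that attaches to amine groups. The injection was shared by all cells, and the labels place each cell in plasma none, plasma low or plasma high by the plasma signal it carried. Strain, sex, genotype and number of animals are not given in the labels. Each cell gave 1 Smart-seq2 library, a full-length read count per gene.

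No label names an animal, so each group counts as 1 sample of cells. For that reason groups are compared without a test or a p-value. Each label also holds a number from 1 to 3 after the letters TH, whose meaning is not stated. Adding up the reads of the cells that share a group and a TH number gave 9 sums, and an error is the SD over the 3 TH numbers (n = 3 sets of wells, not animals). The groups lay in separate plate columns, plasma none in columns 1 to 8, plasma low in 9 to 16 and plasma high from 17 to 23, so that plate column and plasma signal cannot be told apart. The set of genes was chosen because Chd8 and Kmt2a were lower in plasma high than in plasma none. All values of plasma high against plasma none are therefore a description of what the choice used. The other comparisons each share a group with it.

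Chromatin remodellers of the CHD, SWI/SNF (also called BAF) and ISWI families use ATP to slide, eject or restructure nucleosomes, and so set which stretches of DNA other proteins can reach. Histone methyltransferases add methyl groups to lysines of histone tails, and demethylases of the KDM families remove them. Methylation of lysine 4 of histone H3 (H3K4) marks promoters and enhancers in use, while methylation of H3K9, H3K27 and H4K20 is linked to silenced or compacted chromatin. In microglia and other macrophages these enzymes act at the enhancers that hold cell identity and that respond to inflammatory signals.

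The rule by symbol caught 69 protein-coding genes and Kdm6bos, an antisense RNA of the Kdm6b locus. Several enzymes named SETD have other known substrates: Setd3 methylates a histidine of actin, and Setd6 methylates a subunit of NF-kB. Kmt2e, though named a methyltransferase, is thought to lack the activity. The label thus fits most members by family, not all by enzyme activity.

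The 987 cells that passed a filter of at least 50000 reads and 500 genes held between 21309816 and 49323522 reads per sum. The cells were microglia by their markers: 8 microglia genes summed to between 45387 and 54371 CPM (a gene's reads scaled to a common total of reads in genes) in every sum, while neutrophil and lymphocyte markers had no read. Oligodendrocyte markers summed highest among the other lists, from 21.2 to 83.4 CPM, and neuron markers reached 58.1 CPM in 1 sum of plasma high. Several qualities of the libraries moved with the groups. Medians per cell were taken within each TH number and averaged over the 3. From none to low to high, the reads per cell were 217146 ± 53263, 250870 ± 94332 and 289558 ± 99803. The mitochondrial share of reads was 0.604% ± 0.056%, 0.819% ± 0.085% and 0.975% ± 0.205%. Of 85 measured ribosomal protein genes, 53 were above plasma none in all 3 TH numbers of plasma high, and the nuclear-retained RNAs Malat1 and Neat1 were both lower, with a median log2 ratio of −0.56. The part of these shifts in the values below was not tested.

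A gene was called measured with a mean of at least 20 CPM over the 9 sums and a read in at least 5% of passing cells. This held for 49 of the 70 members and for 6775 of all genes. Just inside the limit lay Kdm1a at 20.2 CPM and Kmt5c at 21.8 CPM, and just outside it Kdm1b at 19.5 CPM and Kmt5a at 18.5 CPM. Of the 21 members not measured, Smarca1 and Arid3c had no read in any passing cell. A member could pass the limit through a single group where it is high, so counts over measured members are not counts over all members.

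The members were modestly expressed for their length. The median level was 6.02 CPM per kb of exon over the 49 measured members, against 13.02 CPM per kb over all measured genes. The members have long transcripts: 41 of 49 fell in the longest tertile of measured genes by exon length (from 6.097 kb), and 0 in the shortest. A read was found in a median of 19.05% of cells per measured member, and 3 members reached at least 50% of cells. Fewer cells expressing a gene and less RNA per expressing cell cannot be told apart in the summed values, and the shares of cells given below bear on that with counting error only.

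The most abundant members per kb came from different families. Arid1a, the DNA-binding subunit that defines the canonical BAF complex, had 31.3 CPM per kb. Kmt2e had 28.9 CPM per kb, Arid4a 28.6 CPM per kb, and Kdm5a, an H3K4 demethylase, 21.1 CPM per kb. Chd8 and Kmt2a were below the median of members, at 4.24 and 4.95 CPM per kb. The BAF subunit Smarcd2 had 17.003 CPM per kb, while Kdm5d and Arid5a were near the bottom with 2.17 and 1.86 CPM per kb.

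**Figure D1:**
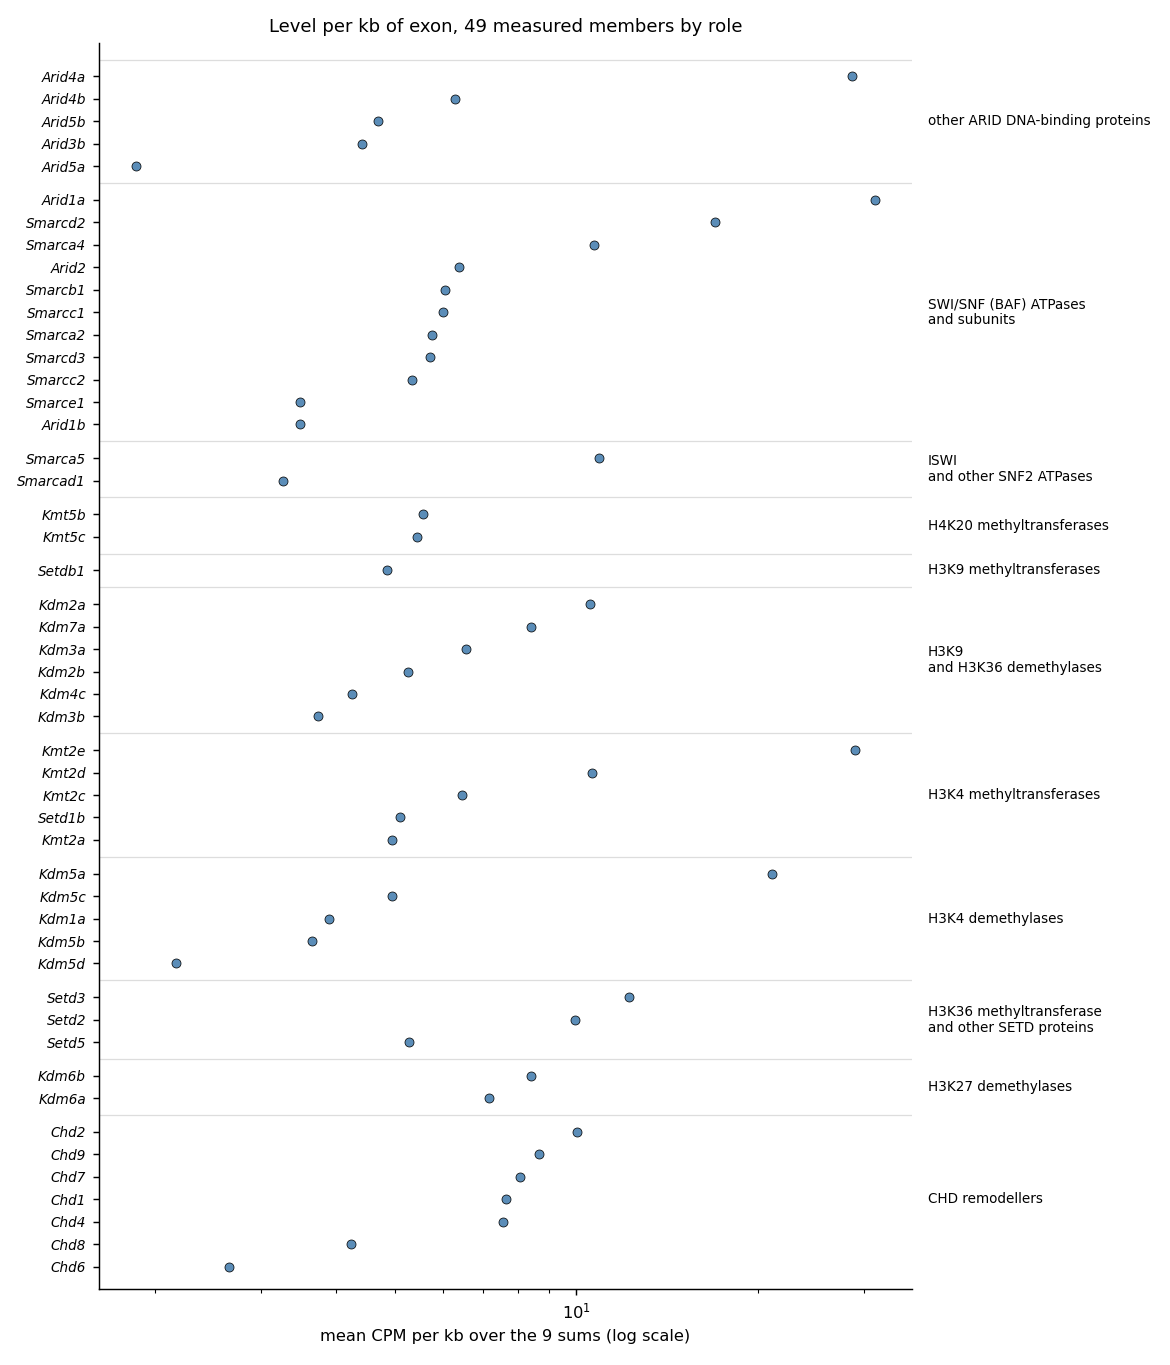
Mean CPM per kb of exon over the 9 sums (log axis) for each of the 49 measured members, grouped by role, 1 point per gene. Arid1a, Kmt2e and Arid4a lie highest, and the range runs from 1.86 to 31.3 CPM per kb.

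Chd8 and Kmt2a, the pair the members were selected on, came first in size of difference. Chd8 (ENSMUSG00000053754, GRCm38 chromosome 14, 52198151 to 52257780, minus strand) encodes a CHD remodeller that binds beta-catenin and whose loss is linked to autism. Kmt2a (ENSMUSG00000002028, chromosome 9, 44803355 to 44881296, minus strand) encodes MLL1, the H3K4 methyltransferase rearranged in mixed lineage leukaemia. The stretches of DNA just upstream of their starts are shown because the choice of members rests on them, together with those of Smarca4 (chromosome 9, 21616169 to 21704230, plus strand) and Kmt5b (chromosome 19, 3767421 to 3818303, plus strand), the pair that lay farthest below plasma none in plasma low. They are RefSeq sequences of GRCm38.p6, 150 bases each on the gene's strand, 5′ to 3′, trimmed so as to hold no annotated exon, with CG dinucleotides in capitals.
Chd8 (chr14:52257781-52257930, minus strand): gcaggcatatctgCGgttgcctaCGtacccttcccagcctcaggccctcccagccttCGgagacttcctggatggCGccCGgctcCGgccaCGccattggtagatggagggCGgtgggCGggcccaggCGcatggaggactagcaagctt
Kmt2a (chr9:44881297-44881446, minus strand): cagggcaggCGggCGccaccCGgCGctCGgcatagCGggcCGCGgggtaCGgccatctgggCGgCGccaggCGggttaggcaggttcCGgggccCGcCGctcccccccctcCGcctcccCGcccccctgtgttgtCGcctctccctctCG
Smarca4 (chr9:21616019-21616168, plus strand): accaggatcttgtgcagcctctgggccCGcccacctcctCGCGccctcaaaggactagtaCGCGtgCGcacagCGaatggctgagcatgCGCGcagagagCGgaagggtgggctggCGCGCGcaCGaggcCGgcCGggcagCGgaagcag
Kmt5b (chr19:3767271-3767420, plus strand): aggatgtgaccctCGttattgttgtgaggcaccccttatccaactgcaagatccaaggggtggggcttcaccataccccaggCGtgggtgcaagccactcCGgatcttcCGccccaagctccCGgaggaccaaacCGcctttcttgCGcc
The 4 stretches hold 10, 19, 17 and 7 CG dinucleotides in the order shown. Kmt5b has a further annotated start, whose window of 300 bases holds 38 CG dinucleotides against 16 at the start shown.

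Promoter windows, from 250 bases before to 50 after a RefSeq start, were found for 53 of the 70 members. Their median count of CG dinucleotides was 28, against 23 over 5297 measured genes with a window and 8 over all 27025 genes with one. A window of Setd5 held 1 and one of Kdm7a held 65. Exact letters of 4 factor motifs were searched on both strands, each motif on its own, so that overlaps between motifs were not removed. The NRF1 letters GCGCATGCG were in 2 of 53 members (3.77%), Smarcb1 and Smarcc1, against 1.95% of all genes with a window and 5.12% of measured genes with one. The ETS letters CCGGAAGT were in 1 member, Setd4 (1.89% against 4.31% of all and 11.2% of measured genes). The YY1 letters AAGATGGCG were in Kdm5c and Smarcd1 (3.77% against 1.64% of all and 4.64% of measured genes). The CRE letters TGACGTCA were in 0 members, against 2.03% of all and 3.96% of measured genes. Of the 37 measured members with a window, 5.41% held the NRF1 letters and 2.70% the YY1 letters. None of the 4 motifs was found in the windows of Chd8, Kmt2a, Smarca4 or Kmt5b.

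Chd8 stood at 117.6, 140.4 and 57.4 CPM in plasma none of TH 1, 2 and 3, at 77.7, 40.5 and 115.1 CPM in plasma low, and at 24.9, 10.9 and 45.2 CPM in plasma high. Every sum of plasma high was below every sum of plasma none, while plasma low overlapped both in range. The log2 ratio of CPM + 1 was −2.04 ± 1.62 for plasma high against plasma none (SD, n = 3), with −0.34 in TH 3 and −3.58 in TH 2, and it was −1.27 without TH 2. Plasma low against plasma none gave −0.46 ± 1.38 with both signs, and plasma high against plasma low gave −1.58 ± 0.24. The step from low to high was thus the even one over TH numbers.

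The difference in Chd8 was not matched by an equal difference in the share of cells with a read. Reads of Chd8 were found in 54 cells or 15.6% of plasma none (exact 95% interval 11.9% to 19.9%), 72 cells or 20.5% of plasma low (16.4% to 25.1%) and 39 cells or 13.4% of plasma high (9.74% to 17.9%). With each cell thinned to 50000 reads, which every passing cell had, the shares were 12.7%, 17.4% and 10.7%. Among the cells with a read, the median level was 104.6 CPM in plasma none, 129.96 CPM in plasma low and 92.1 CPM in plasma high. The single cell with the most reads held 24.5% of all Chd8 reads in plasma none. When the cell with most Chd8 reads was dropped from each sum, the log2 ratio of plasma high against plasma none was −1.62, and that of plasma low against plasma none was 0.04. Chd8 shares 953 exonic bases with the antisense gene Gm26590, and how the counting used strand is not given in the sources used here. Gm26590 itself had means of 5.96 ± 5.18, 2.71 ± 2.23 and 0.923 ± 0.200 CPM in the none, low and high groups.

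Kmt2a stood at 66.9, 195.98 and 107.8 CPM in plasma none of TH 1, 2 and 3, at 100.4, 103.4 and 78.5 CPM in plasma low, and at 25.5, 35.4 and 27.3 CPM in plasma high. All 3 sums of plasma high were below all 6 sums of the other groups, and plasma none and plasma low overlapped. The log2 ratio was −1.91 ± 0.54 for plasma high against plasma none, −0.26 ± 0.76 for plasma low against plasma none and −1.65 ± 0.25 for plasma high against plasma low. It was between −1.47 and −2.21 for plasma high against plasma none under all 13 alternatives in processing.

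In Kmt2a the cells with a read also differed in level. The share of cells with a read was 22.8% in plasma none (79 cells, 18.5% to 27.6%), 24.5% in plasma low (86 cells, 20.1% to 29.3%) and 18.6% in plasma high (54 cells, 14.3% to 23.6%), and these intervals overlap. The median level in cells with a read was 205.2 CPM in plasma low and 65.9 CPM in plasma high, and the log2 ratio of the medians of plasma high and plasma none was −2.26. After thinning the shares were 21.7%, 20.2% and 15.2%. Exons of Kmt2a overlap those of an annotated antisense gene.

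**Figure D2:**
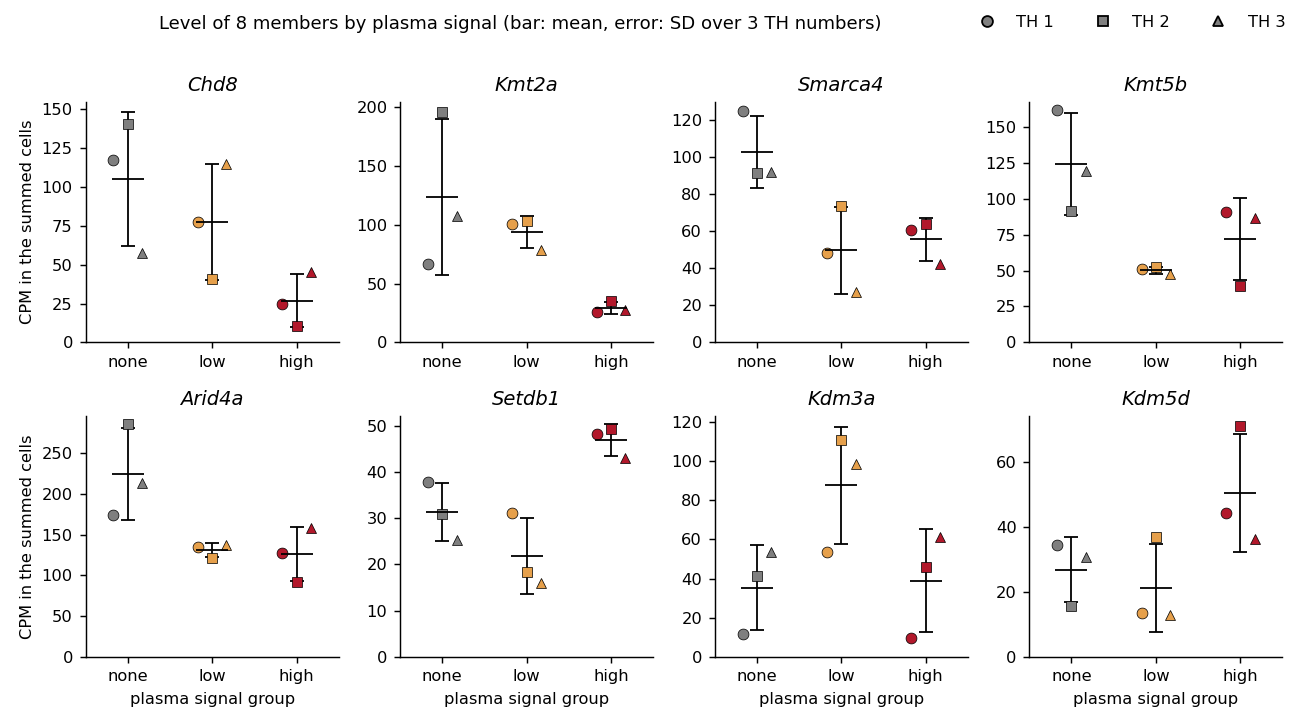
CPM of 8 members in the 9 sums, by plasma signal group, with a symbol for each TH number, a bar at the mean and the SD over 3 TH numbers. Chd8 and Kmt2a lie below plasma none in every sum of plasma high, Smarca4, Kmt5b and Arid4a are already lower in plasma low, and Kdm3a is highest in plasma low.

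A different order was seen in 3 members that were lower in plasma low as well as in plasma high. Both comparisons use the same plasma none sums, and the share of all measured genes lower in both was not taken. Smarca4 encodes BRG1, an ATPase that drives the BAF complex. It stood at 124.9, 91.4 and 91.7 CPM in plasma none, 48.04, 73.6 and 27.01 CPM in plasma low and 60.6, 64.1 and 42.5 CPM in plasma high. All sums of plasma low and plasma high were below all of plasma none, and plasma low and plasma high overlapped. The log2 ratios were −1.13 ± 0.74 (low against none), −0.88 ± 0.32 (high against none) and 0.26 ± 0.42 (high against low). Without the top cell of every sum they were −0.67 for low against none and −0.54 for high against none. With every cell given equal weight, high against none was −0.46. The share of cells with a read was 13.6%, 15.4% and 15.9% from none to low to high, so the lower sums came with no lower share of cells.

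Kmt5b encodes SUV420H1, which adds the second and further methyl groups at H4K20. Its levels were 161.4, 91.5 and 119.4 CPM in plasma none, 51.1, 52.1 and 47.4 CPM in plasma low and 90.4, 39.1 and 86.7 CPM in plasma high. Plasma low was the most even group, and the sums of plasma low and plasma high all lay below those of plasma none. The log2 ratio was −1.25 ± 0.42 for plasma low against plasma none and −0.83 ± 0.37 for plasma high against plasma none. Among cells with a read the median was 367.9 CPM in plasma none, 102.4 CPM in plasma low and 181.4 CPM in plasma high, while the share of such cells was 20.8%, 17.7% and 18.6%. Kmt5b shares 927 exonic bases with the antisense gene Gm16066, which had a mean of 1.26 CPM over the 9 sums.

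Arid4a encodes a protein that binds the retinoblastoma protein and the SIN3 repressor complex. It stood at 174.5, 286.3 and 213.4 CPM in plasma none, 135.005, 121.9 and 137.7 CPM in plasma low and 127.8, 91.8 and 158.2 CPM in plasma high. No sum of plasma low or plasma high reached the lowest sum of plasma none. The log2 ratio was −0.74 ± 0.44 for plasma low and −0.84 ± 0.69 for plasma high against plasma none, and −0.10 ± 0.30 for plasma high against plasma low. Without TH 2, plasma high against plasma none was −0.44. Arid4a had a read in 36.99% of the none group, 32.2% of the low group and 31.03% of the high group, and after thinning in 33.8%, 28.8% and 27.2%. No exon of another gene overlaps those of Arid4a.

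**Figure D3:**
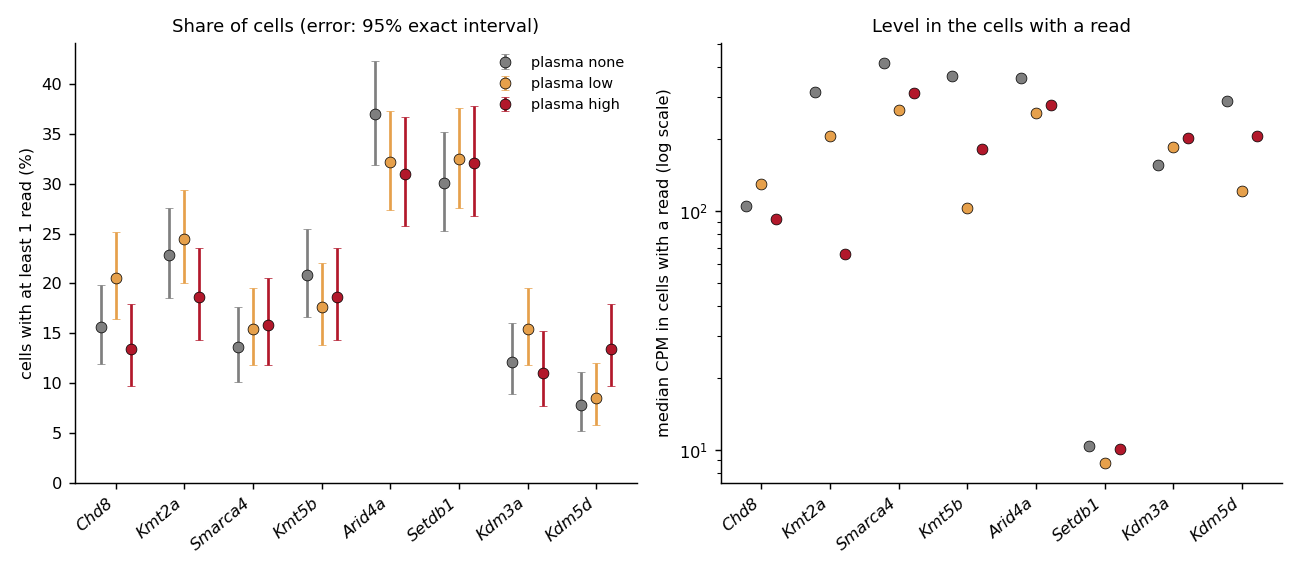
Left, the share of cells with at least 1 read for 8 members in each plasma signal group, with the exact 95% interval; right, the median CPM among those cells (log axis). For Kmt2a the median among cells with a read is highest in plasma none and 65.9 CPM in plasma high, while the intervals of its shares overlap.

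Over all measured members, 9 of 49 (18.4%) lay below plasma none in 3 of 3 TH numbers of plasma high, against 13.9% of all measured genes. The other direction held for 4 of 49 (8.16%), against 17.3% of all measured genes. These counts include the genes the choice was made on and nothing is read from them. The 9 were Chd8, Kmt2a, Kmt5c, Smarca4, Arid4a, Kmt5b, Arid3b, Smarca5 and Kdm1a, and the 4 were Kdm5d, Setdb1, Smarcd3 and Kdm5a. In 6 of 49 members (12.2%) all sums of plasma high lay below all of plasma none, against 5.51% of all measured genes. In 2 of 49 (4.08%) they lay above, against 7.53%. The 6 include Chd8 and Kmt2a, and nothing is read from these counts either. A mean log2 ratio larger than its SD was found in 13 of the 49 members. The share of all measured genes was not taken, so nothing is read from this count.

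The size rule asked for a mean log2 ratio of 1 or more, in either direction, with 1 sign in all 3 TH numbers. Chd8, Kmt2a and Kmt5c met it on the lower side, against 3.03% of all measured genes, and 0 members met it on the higher side, against 3.5%. Kmt5c, which adds the last methyl group at H4K20, stood at 51.4, 29.5 and 11.4 CPM in plasma none and 21.995, 9.4 and 7.3 CPM in plasma high. These groups overlapped, and the log2 ratio of −1.11 ± 0.50 was −0.40 without the outer wells of the plates. Of the 9 members, 6 have exons that overlap an exon of another gene, which leaves Arid4a, Kmt5c and Kdm1a among 27 measured members free of such overlap.

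The median log2 ratio of plasma high against plasma none over the 49 members was −0.12, against 0.03 over all measured genes. Taken within TH 1, 2 and 3 it was 0.01, 0.0010 and −0.15, so the median was below 0 in 1 of 3 TH numbers. The mean ratio was below 0 for 32 members (65.3%), against 47.2% of all measured genes. Members are not the only long genes, and the median over the longest tertile of measured genes was −0.01. The median exon length was 8.59 kb in that tertile and 12.07 kb in the members within it. The part of length in the ratios was not tested. Summed over all 70 members, the level was 4635, 4684 and 4892 CPM in plasma none, 3733, 4418 and 4518 CPM in plasma low, and 4231, 4459 and 4338 CPM in plasma high. The 3 sums of plasma none lay above the 6 others, and plasma low and plasma high overlapped. Chd8 and Kmt2a, on which the choice was made, are part of these sums, so nothing is read from this order.

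**Figure D4:**
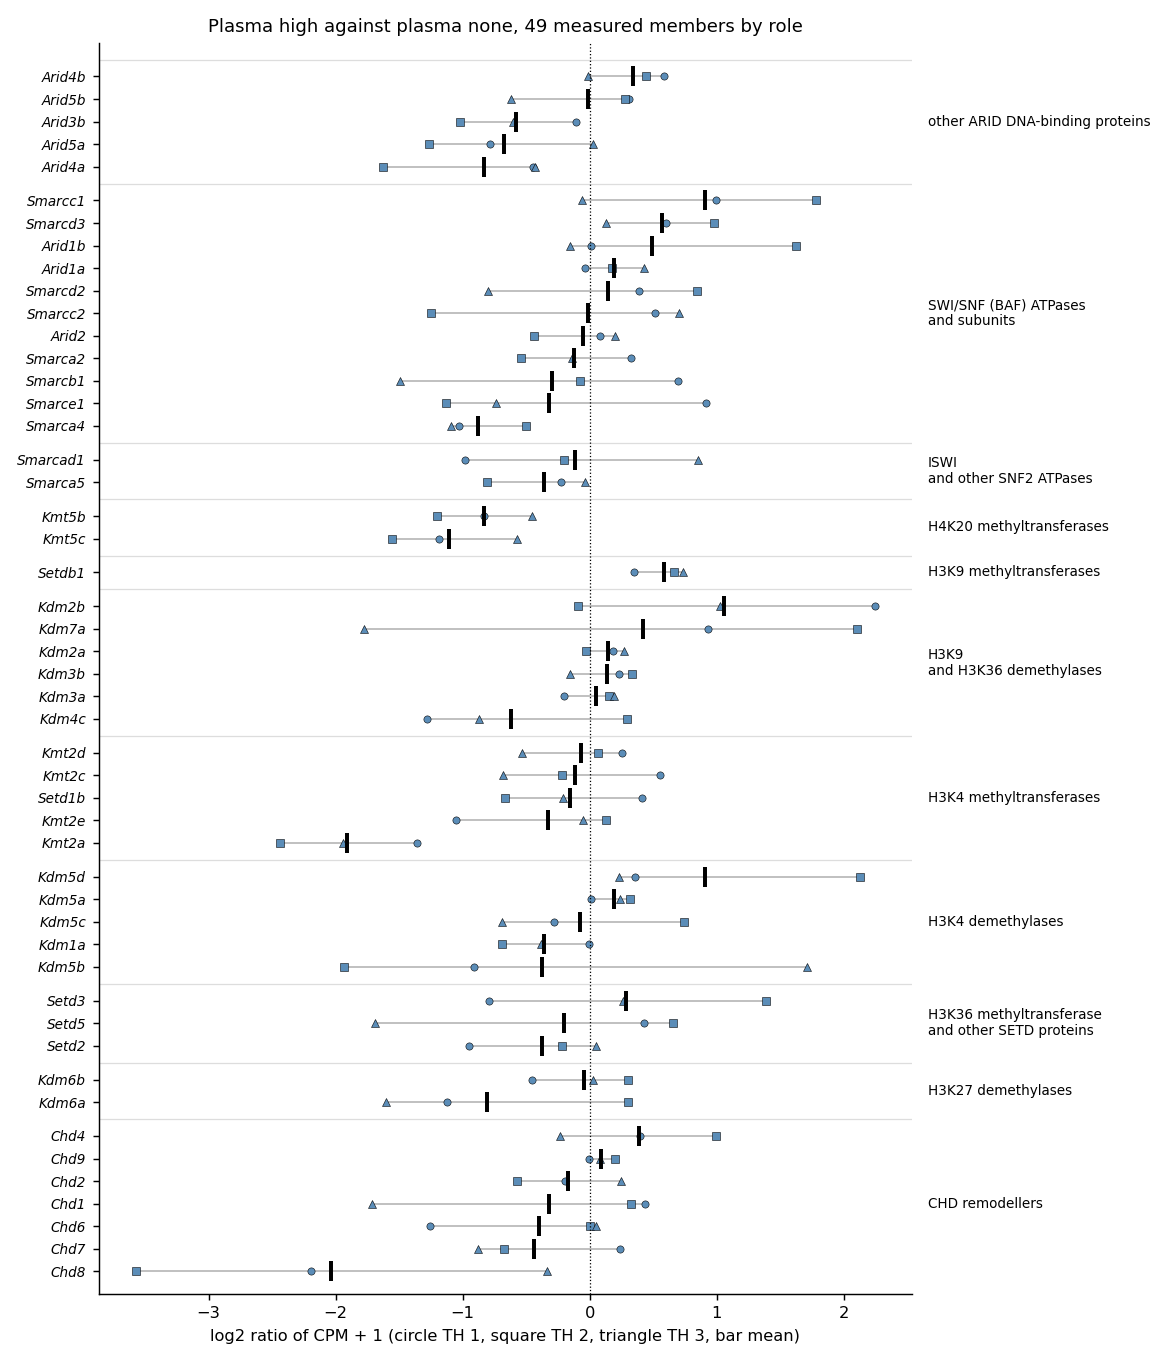
Log2 ratio of CPM + 1 for plasma high against plasma none in each of the 49 measured members, by role, with a symbol for each TH number and a bar at the mean of 3. Chd8 and Kmt2a lie farthest to the left, with means of −2.04 and −1.91, and most other members have points on both sides of 0.

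Among the 7 measured CHD remodellers, Chd8, on which the choice was made, was the one with the same sign in 3 of 3 TH numbers. This was in plasma high against plasma none, where 13.9% of all measured genes were lower and 17.3% higher in 3 of 3. Chd9, which had a read in 65.7% of all cells, stood at 207.97, 201.2 and 198.8 CPM in plasma none and at 206.9, 230.8 and 210.3 CPM in plasma high. Its log2 ratio was 0.09 ± 0.10, the smallest spread over TH numbers among the CHD members. Chd2, an autism and epilepsy gene, had −0.17 ± 0.41. Chd4, the ATPase of the NuRD complex, had 0.39 ± 0.61, with both signs.

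Of the 5 measured H3K4 methyltransferases, Kmt2a, on which the choice was also made, was the one lower in 3 of 3 TH numbers. This held for 13.9% of all measured genes. Kmt2d (MLL4), which marks enhancers, stood at 225.2, 192.6 and 212.8 CPM in plasma none, 178.8, 241.2 and 238.2 CPM in plasma low and 268.5, 202.03 and 146.7 CPM in plasma high. The groups overlapped, with a log2 ratio of −0.07 ± 0.41 for plasma high against plasma none. Kmt2e had 541.6, 242.96 and 299.9 CPM in plasma none and 259.8, 265.4 and 288.9 CPM in plasma high. Its ratio of −0.33 ± 0.64 rested on TH 1, without which it was 0.01. Its exons share 972 bases with Srpk2 on the other strand.

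On the side that removes H3K4 methylation, Kdm5a and Kdm5d were above plasma none in 3 of 3 TH numbers of plasma high. Kdm1a (LSD1) was below plasma none in 3 of 3, with a log2 ratio of −0.36 ± 0.34. In TH 1 that ratio was −0.004, from 16.71 CPM in plasma none and 16.66 CPM in plasma high. Kdm1a had a read in 6.65% of the none group and 8.97% of the high group. Where it had a read, its median level was 64.5 CPM in the none group and 174.1 CPM in the high group. Kdm5a stood at 207.8, 243.8 and 379.6 CPM in plasma none and 209.5, 303.8 and 447.4 CPM in plasma high, a log2 ratio of 0.19 ± 0.16 in groups that overlapped, and of 0.02 with every cell given equal weight. Kdm5d, the copy on the Y chromosome, stood at 34.3, 15.5 and 30.7 CPM in plasma none, 13.6, 37.02 and 13.01 CPM in plasma low and 44.3, 71.1 and 36.3 CPM in plasma high. Every sum of plasma high was above every sum of plasma none, with a log2 ratio of 0.91 ± 1.06, which was 0.29 without TH 2.

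The level of a Y-linked gene in a sum of cells depends on how many of the cells came from males, so other sex-linked genes were read beside Kdm5d. Xist, expressed from the inactive X of females, had at most 0.462 CPM in any sum. Eif2s3y had a mean of 278.6 ± 95.5 CPM in plasma none and 202.6 ± 73.9 CPM in plasma high, and Ddx3y 124.7 ± 129.5 and 109.3 ± 53.8 CPM. From none to low to high, Uty had 86.5 ± 49.4, 97.7 ± 18.3 and 23.7 ± 13.3 CPM. The log2 ratio of plasma high against plasma none was −0.46 ± 0.76 for Eif2s3y and −1.81 ± 1.54 for Uty. For Ddx3y it was 0.19 ± 0.88, with both signs. Whether the groups differed in their share of cells from males was not tested. These 4 genes were chosen after the values of Kdm5d were seen.

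The H3K9 methyltransferase Setdb1, which silences endogenous retroviruses, was higher in plasma high. It stood at 37.7, 30.8 and 25.4 CPM in plasma none, 31.2, 18.3 and 16.1 CPM in plasma low and 48.2, 49.4 and 42.9 CPM in plasma high. All sums of plasma high were above all others. The log2 ratio was 0.58 ± 0.21 for plasma high against plasma none, −0.54 ± 0.24 for plasma low against plasma none and 1.12 ± 0.44 for plasma high against plasma low. The cell with the most reads held 22.7% of Setdb1 reads in plasma high, and without the top cell of every sum the first ratio was 0.07 and the last 0.70.

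Setdb1 reads were also spread unlike those of the other members. Cells with a read made up 30.1%, 32.5% and 32.1% of the none, low and high groups, but the median level in those cells was 10.3, 8.81 and 10.1 CPM. Thinned to 50000 reads per cell the shares were 15.9%, 14.5% and 16.9%. The last exon of Setdb1 shares 75 bases with that of Cers2 on the other strand, a ceramide synthase with a mean of 284.9 CPM. Whether such reads were assigned by strand is not given in the sources used here, and the part of the overlap in these values was not tested.

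Among the 6 measured demethylases of H3K9 and H3K36, 0 kept 1 sign over the 3 TH numbers between plasma high and plasma none. Of all measured genes, 13.9% were lower and 17.3% higher in all 3. Kdm3a, an H3K9 demethylase also induced by low oxygen, was highest in plasma low. It stood at 11.4, 41.2 and 53.6 CPM in plasma none, 53.6, 110.9 and 98.3 CPM in plasma low and 9.8, 45.8 and 61.2 CPM in plasma high. Within each TH number plasma low was the highest of the 3 groups, and plasma none and plasma high were close. The log2 ratio was 1.47 ± 0.64 for plasma low against plasma none and −1.42 ± 0.85 for plasma high against plasma low. One cell held 33.2% of the Kdm3a reads of plasma low, and without the top cells the ratios were 1.18 and −1.08. With every cell given equal weight the second ratio was −0.76. Kdm2a and Kdm7a of the same list had 0.14 ± 0.15 and 0.42 ± 1.99 for plasma high against plasma none.

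The 11 measured SWI/SNF subunits went different ways. Arid1a stood at 281.1, 389.4 and 368.2 CPM in plasma none, 215.3, 457.4 and 305.7 CPM in plasma low and 273.7, 440.2 and 496.6 CPM in plasma high, with a log2 ratio of 0.19 ± 0.23 for plasma high against plasma none. Smarca2 (BRM), the ATPase that can take the place of Smarca4, had −0.12 ± 0.44. Smarcd3 was higher in 3 of 3 TH numbers with 0.57 ± 0.42, but −0.26 with every cell given equal weight, and its exons share 2466 bases with Chpf2 on the other strand. The list median was −0.01 for plasma high against plasma none. The ISWI ATPase Smarca5 had −0.36 ± 0.40, with −0.04 in TH 3 and −0.11 without the outer wells.

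Both measured H4K20 methyltransferases, Kmt5b and Kmt5c, lay below plasma none in all 3 TH numbers of plasma high, as did 13.9% of all measured genes. The H3K27 demethylases were not of 1 sign: Kdm6a had −0.81 ± 0.99, or −1.83 without the top cells (1 cell held 45.8% of its plasma high reads), and Kdm6b, induced by inflammatory signals in macrophages, −0.04 ± 0.38. Of the SETD proteins, Setd2, which places the third methyl group at H3K36, had −0.37 ± 0.52 and Setd3 0.28 ± 1.09. Of the other ARID proteins, Arid3b had −0.58 ± 0.46, which was −0.22 without the top cells, and Arid4b 0.34 ± 0.31.

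In plasma low against plasma none, 8 of 49 members (16.3%) were lower in 3 of 3 TH numbers, against 11.8% of all measured genes, and 2 (4.08%) were higher, against 15.5%. The lower ones were Kmt5b, Smarca4, Arid4a, Arid2, Setdb1, Chd7, Kdm6b and Smarce1, and the higher ones Kdm3a and Smarcc2. Kmt5b and Smarca4 met the size rule on the lower side (1.77% of all measured genes) and Kdm3a on the higher side (2.08%). The median over members was −0.19, against 0.04 over all measured genes, and it was −0.27, −0.13 and −0.15 within TH 1, 2 and 3. Without TH 1 it was −0.06. The mean ratio was below 0 for 35 members (71.4%), against 46.5% of all measured genes. This comparison shares the cells of plasma none with the one the choice was made on.

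In plasma high against plasma low, 6 of 49 members (12.2%) were lower in 3 of 3 TH numbers and 6 were higher, against 13% and 13.1% of all measured genes, shares near the background. Kmt2a, Chd8, Kdm3a and Arid5a met the size rule on the lower side (2.18% of all measured genes), and Kdm5d and Setdb1 on the higher side (2.02%), Setdb1 with 0.70 when the top cells were left out. Arid5a, an RNA-binding protein that stabilises cytokine transcripts, had −1.20 ± 1.14. Smarcd2, a BAF subunit needed for granulocyte development, had 0.68 ± 0.36, and 0.40 with every cell given equal weight. The median over members was −0.0046, against −0.0052 over all measured genes.

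The number of members detected per cell was read at an equal depth. At 50000 reads per cell, the mean number of members with a read was 9.21 ± 0.43, 9.83 ± 0.92 and 9.41 ± 1.15 from none to low to high. The median of all genes detected, averaged over TH numbers, was 1532, 1811 and 1749. Per 1000 genes detected, members made up 5.94, 5.97 and 6.09 in plasma none, 5.42, 5.65 and 5.73 in plasma low, and 5.66, 5.40 and 5.18 in plasma high. The number of members per cell thus overlapped between groups, and their share of the genes detected was highest in plasma none in every TH number.

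The subunits and related enzymes that work with the members were read from 7 lists with 71 genes, of which 53 were measured. In plasma high against plasma none 9 of the 53 were lower in 3 of 3 TH numbers and 7 were higher (13.9% and 17.3% of all measured genes), with a median of 0.02. A list of core and associated genes of the COMPASS complexes, in which Kmt2a and its relatives act, had a median of 0.33 over 7 genes. Within TH 1, 2 and 3 its median was 1.24, −0.15 and 0.05. Psip1, which tethers Kmt2a to chromatin, had 1.08 ± 1.009 and Ash2l −0.64 ± 0.78, both with mixed signs. The 2 with 1 sign in 3 of 3 TH numbers were Dpy30, higher with 0.85 ± 0.59, and Cxxc1, lower with −0.44 ± 0.31. Of 8 NuRD subunits, the histone chaperone Rbbp7 had 0.79 ± 0.36 and Gatad2b −0.89 ± 0.33, each with 1 sign in 3 of 3 TH numbers.

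Bptf, the largest subunit of the ISWI complex NURF, was lower in 3 of 3 TH numbers in each comparison, with −0.999 ± 0.41 for plasma high against plasma none. Ruvbl1, an ATPase of the INO80 and SRCAP complexes, was higher with 1.10 ± 0.82. Of the polycomb genes, Jarid2 had −0.88 ± 0.58 and Suz12 0.89 ± 0.72, again each with 1 sign in 3 of 3 TH numbers. Among 8 other histone lysine methyltransferases 3 were lower and 0 higher in 3 of 3 TH numbers (13.9% and 17.3% of all measured genes), with a median of −0.30. Of these, Prdm2 had −0.71 ± 0.30, and Nsd1, an H3K36 methyltransferase with a mean of 370.9 CPM, had −0.41 ± 0.13. Of 10 further SWI/SNF subunits and 7 acetyltransferases, 0 had 1 sign in 3 of 3 TH numbers.

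**Figure D5:**
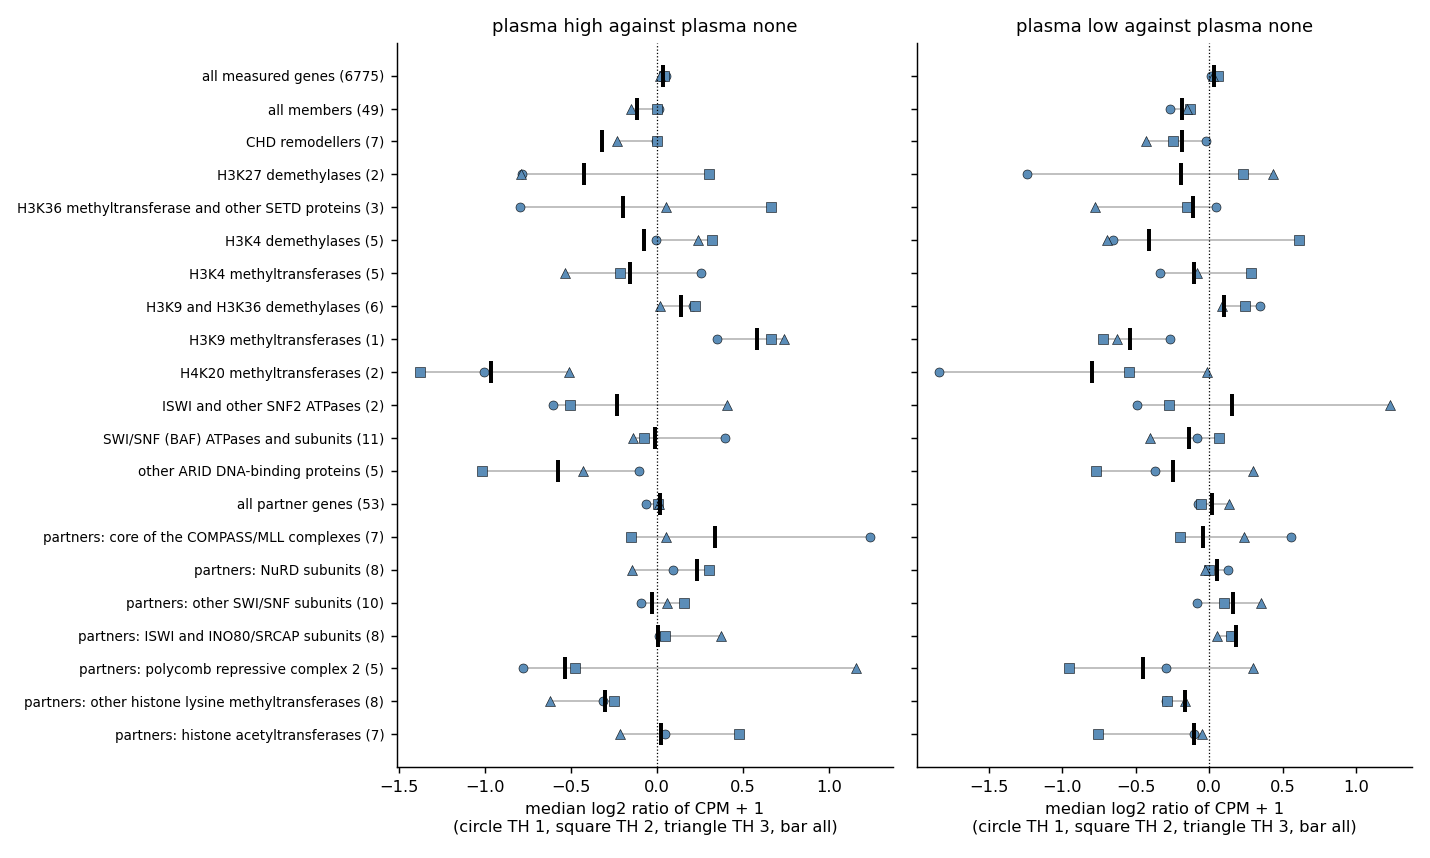
Median log2 ratio of CPM + 1 over the measured genes of each list (number in parentheses), for plasma high against plasma none and plasma low against plasma none, with a symbol for each TH number and a bar at the median of the mean ratios. The bar of all members lies at −0.12 and −0.19, that of all partner genes at 0.02 in both.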

How the data were processed

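Smart-seq2 libraries of 1111 labelled cells were sequenced, of which 1045 had a column of values, and the other 66 were not analysed here. The authors deposited a count for every gene in every cell. One TH 3 column, with 2 values that were not whole, was treated as deposited expected counts. Per the file headers, columns of TH 2 and TH 3 carry a note on top hits, and those of TH 1 do not. Per the submitters' processing notes, bcl2fastq, Trim Galore, STAR 2.5.3a, Seurat and the build mm10 were used, while the tool that counted reads and whether it used strand are not given in the sources used here. Coordinates are those of the tables, and 35546 gene IDs were found in GENCODE M21, 99.6% with the same start and end.

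Counts of passing cells were summed per group and TH number, and the expected counts were rounded. The sums were scaled to CPM with TMM factors (edgeR 4.0.16, R 4.3.3). Ratios between groups were log2 of CPM + 1 (pseudocount 1), computed per TH number and then averaged over the 3. Intervals of shares are exact Clopper-Pearson, cover counting error only, and PCR copies were not told apart. Wells held single sorted cells, so doublets were not called and no clusters were made. The ratios were tested on simulated data.

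The members and lists were chosen with earlier results of these data known. Named genes were Chd8 and Kmt2a, the 8 largest falls and rises of 1 sign in 3 of 3 TH numbers between plasma high and plasma none, the 3 largest in either of the other comparisons, the 2 highest per kb in each role list, and the largest rise and fall of each partner list. A gene outside this rule was named after its values were seen. Alternatives covered scaling, pseudocount, filters, cell weights, outer wells and each TH number left out.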

Additional observations from a re-analysis of the deposited data

How the results depend on the processing

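Counts of members lower or higher in each TH number and medians over members were recomputed under 13 other settings. With 1 TH number left out, when 2 of 2 signs suffice by construction, the members lower in plasma high than in plasma none numbered 12 to 16 and those higher 8 to 13. Of all measured genes, 25.3% to 26.6% were then lower and 27.2% to 28.8% higher. For plasma low against plasma none these were 14 to 18 lower and 5 to 10 higher, with medians from −0.20 to −0.059 (23.9% to 24.9% and 26.8% to 27.4% of all measured genes). For plasma high against plasma low they were 10 to 13 lower and 10 to 15 higher (24.5% to 26% and 24.5% to 26.5% of all measured genes). Members above plasma none in plasma high numbered 1 at a minimum of 50 CPM, 1 with cells weighted equally and 1 without the top cells, against 18.8%, 16.6% and 15.6% of all measured genes. The members higher in plasma low than in plasma none numbered 4 at a minimum of 5 CPM, 1 at 50 CPM, 7 with no filter and 4 without the outer wells, against 15.1%, 16.9%, 10.6% and 15% of all measured genes. The members lower in plasma low than in plasma none numbered 4 without the top cells, against 10.4% of all measured genes. The members higher in plasma high than in plasma low numbered 3 at a minimum of 50 CPM and 3 with cells weighted equally, against 14.3% and 13.7% of all measured genes.

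Leaving out members with overlapping exons was chosen after seeing the data. Of the 27 measured members left, 3 were lower and 1 higher in plasma high against plasma none, against 13.9% and 17.3% of all measured genes. In plasma low against plasma none 3 of them were lower, against 11.8% of all measured genes. In plasma high against plasma low 2 of them were higher, against 13.1%. Of 23 ratios of named members with 1 sign in 3 of 3 TH numbers, 22 had a mean of the same sign under all 13 settings, which does not require 1 sign in every TH number. Smarcd3 in plasma high against plasma none was −0.26 with cells weighted equally. Every ratio was taken within TH numbers, and no fit with or without a block by TH number was made, since no test was run. With each group a single sample of cells, no difference here has a check between animals.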
